A study of Mus musculus with 2 samples.

Results

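Lgr5, Smoc2, Ascl2, Axin2, Rgmb, Rnf43, Znrf3, Lrig1, Olfm4 and Hopx are markers of intestinal stem cells or targets and regulators of Wnt signalling. These 10 genes were taken by name, and all 10 were among the 17829 gene symbols of the deposited count table. Epithelial cells of the colon of C57BL/6 mice had been sorted as alive and EpCAM-positive and were profiled by droplet-based 3' single-cell RNA sequencing. There was 1 library of genotype Mettl14 WT, with 4210 cells and 60205658 unique molecular identifiers (UMIs, single counted RNA molecules), and 1 of Mettl14 KO, with 3653 cells and 37635762 UMIs. The median WT cell held 12094 UMIs and the median KO cell 9119. The series text places both at 2 weeks without saying from when. The labels name no Cre driver and no deleted exons, and they do not say how many animals were pooled. Both libraries held cells with 3 or more Xist UMIs but no Y-linked one (1689 WT and 1696 KO cells) and cells with Y-linked UMIs but no Xist (1540 and 996), and 2 barcode sequences occurred in both. With 1 library per genotype no difference has a replicate check and no test is given. Every comparison is between single libraries, and the 95% intervals cover counting error alone.

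Wnt ligands hold the base of the colonic crypt in a proliferating state. They bind Frizzled receptors and Lrp coreceptors, which stabilises β-catenin, and β-catenin with Tcf factors switches on target genes. The stem cells at the crypt base carry Lgr5, a receptor for R-spondins. R-spondins raise Wnt signalling by drawing the ubiquitin ligases Rnf43 and Znrf3, which remove Frizzled from the cell surface, away from their substrate. Rnf43, Znrf3 and Axin2, a scaffold of the complex that destroys β-catenin, are themselves Wnt targets and act as negative feedback. Mettl14 is the partner of Mettl3 in the methyltransferase that places N6-methyladenosine (m6A) on RNA.

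The targeted gene was lower in the library labelled KO. Mettl14 had 632 WT and 201 KO UMIs, or 10.5 and 5.34 UMIs per 1000000 UMIs of the library (CPM), a log2 ratio of −0.97 (−1.21 to −0.74). By cluster (described below) it was lower by the rule in clusters 1 to 4 and not in cluster 0, at 10.5 and 8.17 CPM (−0.36, −0.83 to 0.10), and it had too few UMIs in cluster 5. The 3' tags check the label only if they lie in the deleted part, which the labels do not give.

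Transcripts of the crypt-base receptor gene Lgr5 were scarce in the KO library, whereas those of Ascl2, the transcription factor that marks the same cells, were as abundant as in the WT library. Smoc2, Rnf43, Hopx and Axin2 lay between. Olfm4 was the gene with the higher KO level, at very few counts. A gene was counted as lower or higher when its CPM differed at least 1.5-fold and the interval of the ratio excluded equal levels. By that rule 5 of the 10 genes were lower in the KO library, 1 was higher and 4 were neither, and all 10 had the minimum of 50 UMIs over both libraries. Of all 13334 genes with that minimum, 16.2% were lower and 16.7% higher by the same rule. The median log2 ratio of KO over WT CPM was −0.68 over the 10 genes and −0.04 over all measured genes.

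**Figure D1:**
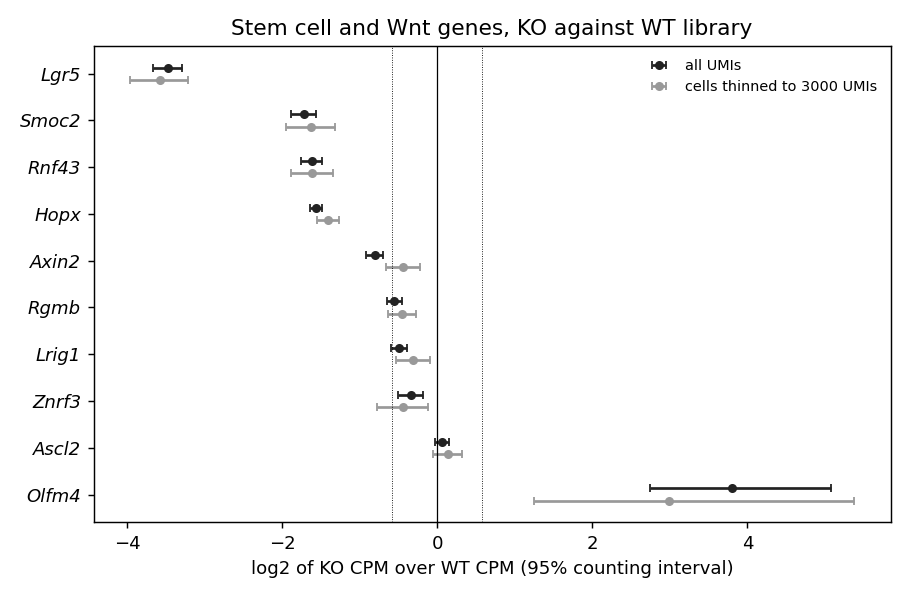
Log2 ratio of KO over WT CPM for each of the 10 genes over all cells (black) and with every cell thinned to 3000 UMIs (grey). Bars are 95% counting intervals and dotted lines mark 1.5-fold. Lgr5 stands at −3.47, Ascl2 at 0.06 and Olfm4 at 3.81.

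Lgr5 lies on chromosome 10 at 115450311 to 115587780 on the minus strand (GRCm38, 18 exons in its principal transcript). It had 4228 WT and 238 KO UMIs. Its level was 70.2 CPM (68.1 to 72.4) against 6.32 CPM (5.55 to 7.18), a log2 ratio of −3.47 (−3.67 to −3.28), or 11.1-fold lower in the KO library. At least 1 Lgr5 UMI was found in 34.3% of WT cells (32.8 to 35.7, exact Clopper-Pearson interval) and 4.71% of KO cells (4.04 to 5.45). The cells that held the transcript also held fewer copies, with a mean of 2.93 UMIs per positive WT cell and 1.38 per positive KO cell. In the WT library 472 cells held 3 to 5 Lgr5 UMIs and 176 held 6 or more. In the KO library 11 and 1 cells did. The highest count in a cell was 26 in the WT and 8 in the KO library.

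Sequencing depth differed between the libraries, so each cell was also thinned to 3000 UMIs, which left out 172 WT and 97 KO cells. Lgr5 was then found in 15.9% of WT and 1.72% of KO cells, and its log2 ratio was −3.57 (−3.96 to −3.21). Among unthinned cells with 10000 to 20000 UMIs the share was 30.4% of 2110 WT cells and 4.88% of 1332 KO cells. Among cells above 20000 UMIs it was 57.1% of 777 WT cells and 16.1% of 224 KO cells. The KO share was thus lower within each of these depth ranges.

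Smoc2 (chromosome 17, 14279506 to 14404790) encodes a secreted matricellular protein that marks Lgr5-positive cells. It stood at 33.2 CPM in WT, from 2000 UMIs, and at 10.1 CPM in KO, from 380 UMIs. The log2 ratio was −1.72 (−1.88 to −1.56), a smaller difference than that of Lgr5, and the intervals of both ratios did not overlap. Smoc2 UMIs were found in 25.7% of WT and 7.53% of KO cells, and in 8.27% and 2.76% of thinned cells.

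Ascl2 (chromosome 7, 142966829 to 142969264) encodes a basic helix-loop-helix transcription factor that is a Wnt target and sustains the stem cell state of the crypt base. It had 2460 WT and 1603 KO UMIs. Its level was 40.9 CPM (39.3 to 42.5) against 42.6 CPM (40.5 to 44.7), with a log2 ratio of 0.06 (−0.03 to 0.15). As far as counting error goes, the interval excludes a difference of 1.5-fold in either direction. Ascl2 was found in 29.0% of WT and 26.0% of KO cells, and in 406 of 4038 and 381 of 3556 thinned cells, the latter 10.7% (9.72 to 11.8).

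The Wnt feedback genes differed among themselves. Rnf43 (chromosome 11, 87662722 to 87735539) stood at 44.3 CPM in the WT and 14.5 CPM in the KO library, with a log2 ratio of −1.62 (−1.75 to −1.48). Its paralogue Znrf3 (chromosome 11, 5276324 to 5444847), which acts on the same receptors, stood at 15.8 and 12.5 CPM, with a ratio of −0.34 (−0.50 to −0.18). The intervals of these ratios did not overlap. Rnf43 was found in 38.5% of WT and 13.3% of KO cells, and Znrf3 in 18.8% and 11.8%.

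Axin2 (chromosome 11, 108920349 to 108950783), the most widely used reporter of Wnt target activity, stood at 41.4 CPM in the WT and 23.8 CPM in the KO library. Its log2 ratio was −0.80 (−0.91 to −0.69) over all UMIs. With thinned cells it was −0.44 (−0.66 to −0.22), which no longer met the 1.5-fold rule. Axin2 was found in 32.2% of WT and 19.1% of KO cells before thinning, and in 9.53% and 7.34% of cells after it.

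Rgmb and Lrig1 differed by less than 1.5-fold. Rgmb (chromosome 17, 15803188 to 15831039) encodes a coreceptor for bone morphogenetic proteins and stood at 53.1 and 36.3 CPM, a log2 ratio of −0.55 (−0.64 to −0.46). Leaving mitochondrial, ribosomal-protein and haemoglobin genes out of the totals moves every ratio by −0.07, and Rgmb then met the rule. Lrig1 (chromosome 6, 94604529 to 94700158) encodes an inhibitor of ErbB receptors that marks slowly dividing and other crypt-base cells. It stood at 37.6 and 26.8 CPM, a ratio of −0.49 (−0.60 to −0.38). The last exon of Lrig1 overlaps Slc25a26 on the other strand. Lgr5, Smoc2, Axin2, Rnf43 and Hopx also overlap a gene annotated on the other strand, outside their last exons. On the same strand Rnf43 overlaps 1110028F11Rik, Lrig1 overlaps Mir7041 and Olfm4 overlaps Gm6999, also outside their last exons. The strand setting of the authors' counting is not given in the sources used here. Whether reads of any overlapping gene were counted for the 10 genes was not checked.

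Hopx (chromosome 5, 77086988 to 77115121) encodes a small homeodomain-only protein, used in the small intestine as a marker of slowly cycling cells above the crypt base. It stood at 141 CPM in WT, from 8493 UMIs, and at 47.9 CPM in KO, from 1802 UMIs. The log2 ratio was −1.56 (−1.63 to −1.49). Hopx was found in 72.2% of WT and 34.0% of KO cells, and in 31.7% and 13.4% of thinned cells. Among WT cells 305 held 6 or more Hopx UMIs, against 2 KO cells.

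Olfm4 (chromosome 14, 79984081 to 80023139) encodes a secreted glycoprotein that marks stem cells of the small intestine and is also made by neutrophils. It had 8 WT and 70 KO UMIs, or 0.133 and 1.86 CPM, with a log2 ratio of 3.81 (2.75 to 5.07). Olfm4 UMIs lay in 6 WT cells and 53 KO cells, that is 0.143% (0.0523 to 0.31) and 1.45% (1.09 to 1.89). Of the 53 KO cells, 44 held a single UMI, and the highest count was 6. Of the 8 WT UMIs, 3 lay in the stromal-like cluster described below, and without that cluster the ratio was 4.45. Of 8 immune markers, at least 1 UMI was found in 9 of the 53 KO cells and in 4 of the 6 WT cells. At least 5 such UMIs were found in 5 of the 53 KO cells and in 122 of the 3600 other KO cells. In the WT library they were found in 2 of the 6 cells and in 136 of the 4204 others. Ascl2 was found in 41.5% of the 53 KO cells (28.1 to 55.9) and in 25.8% of the other KO cells, and Mki67, a marker of dividing cells, in 56.6% and 40.6%. The median depth of the 53 cells was 12543 UMIs, above that of the library.

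What these transcripts share in sequence was examined with GGACT, a common form of the site at which the Mettl14 complex places m6A. Coding sequences of the principal transcripts were taken from GENCODE vM21 (GRCm38) and searched on the sense strand. Of 12557 measured genes with such a sequence, 75.8% held at least 1 GGACT, with a median of 1.06 per kilobase. Lgr5 held 2 in 2721 coding bases (0.735 per kilobase) and Smoc2 1 in 1341 bases (0.746). Ascl2, whose level was alike in both libraries, held 1 in 789 bases (1.27). Rnf43 held 6 (2.55 per kilobase), Znrf3 5 (1.83), Lrig1 8 (2.44), Axin2 4 (1.59), Rgmb 2 (1.53), Olfm4 2 (1.32) and Hopx 0 in 219 bases. These counts leave out the untranslated parts. Over whole transcripts Lgr5 held 5, Smoc2 2, Ascl2 3, Axin2 5, Rgmb 4, Rnf43 8, Znrf3 9, Lrig1 10, Olfm4 2 and Hopx 1. A link of either count with the log2 ratios was not tested. A match gives letters and does not show methylation, which was not measured here. The windows below show, with the motif in capitals, the sites of the receptor gene Lgr5, of its companion marker Smoc2 and of Ascl2, each read 5′ to 3′ on the coding strand with its position counted from 1 at the start codon.
Lgr5 at position 150: tgctcagggtGGACTgctcggacct
Lgr5 at position 694: atgctttgatGGACTccacagcctg
Smoc2 at position 126: actgcagcctGGACTgcccaagctc
Ascl2 at position 34: cggggtcccaGGACTgcaggaggcc

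The next comparison takes the genes by the authors' clusters, which are numbered and carry no names. By marker genes cluster 1 was goblet-like, cluster 3 cycling-like, cluster 4 colonocyte-like, cluster 5 enteroendocrine-like and cluster 6 stromal-like. Cluster 6 scored nearly as high for tuft markers (2.16 against 2.19), and the neutrophil genes S100a8 and S100a9 were among its 10 leading genes. Cluster 2 scored alike for goblet and deep crypt secretory markers (1.12 and 1.16), had Muc2 among its 10 leading genes and was left unnamed. Cluster 0 was led by pancreatic enzyme genes and was left unnamed too, although the naming rule given below would have named it for them. Without 33 WT cells rich in these enzymes, M cell markers scored highest (1.35) and the stem markers next (1.03). The 7 stem markers are Lgr5, Smoc2, Ascl2, Axin2, Rgmb, Rnf43 and Znrf3, all among the 10 genes. Their score and their levels by cluster are thus the same values. Clusters 0 to 5 held at least 50 cells in each library and are compared. Cluster 6 held 117 WT and 31 KO cells and is not. Clusters were made by the authors from the same counts, so a gene's level in one cluster against another is a description.

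In the WT library Lgr5 was highest in cluster 0, at 123 CPM (117 to 129), followed by cycling-like cells at 91.2 CPM. Enteroendocrine-like cells stood at 70.2 and colonocyte-like cells at 54.2 CPM, with overlapping intervals. Goblet-like cells stood at 29.3 CPM and cluster 2 was lowest at 21.3 CPM. Ascl2 had its highest WT levels in the same clusters, 59.3 CPM in cluster 0 and 58.5 CPM in cycling-like cells, and its lowest in cluster 2 at 10.8 CPM. Rnf43 and Znrf3 also had their highest WT levels in clusters 0 and 3, and so did Axin2 and Smoc2 with cluster 3 first. Hopx did not follow this order, since its highest WT level was in enteroendocrine-like cells at 203 CPM (179 to 229) and its lowest in colonocyte-like cells at 121 CPM, a range of 1.68-fold against 5.77-fold for Lgr5. Rgmb and Lrig1 were also even, with Rgmb ranging 1.81-fold and neighbouring clusters in the order of Lrig1 overlapping in their intervals.

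Each of the 6 clusters had less Lgr5 in the KO library. The log2 ratio was −3.81 (−4.20 to −3.45) in cluster 0, where 1594 UMIs stood against 62, and −2.95 (−3.23 to −2.68) in cycling-like cells, where 1534 stood against 120. These intervals did not overlap, but with thinned cells the ratios were −3.50 (−4.12 to −2.94) and −3.49 (−4.18 to −2.88). In goblet-like cells it was −4.27 (−5.20 to −3.47), in cluster 2 −3.08 (−3.98 to −2.30) and in colonocyte-like cells −3.42 (−4.06 to −2.85). In enteroendocrine-like cells 89 UMIs stood against 3, a ratio of −4.74 (−7.04 to −3.15). With thinned cells clusters 1, 2 and 5 had under 50 Lgr5 UMIs, and Lgr5 was lower in the other 3. What remained of Lgr5 in the KO library was still uneven, with 11.8 CPM (9.76 to 14.1) in cycling-like cells and 8.73 CPM in cluster 0 against 1.52 CPM (0.808 to 2.60) in goblet-like cells.

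Lgr5 UMIs were found in 52.7% of WT and 6.25% of KO cells of cluster 0, and in 51.7% and 8.65% of cycling-like cells. For a background from free RNA, stromal-like cells held an Lgr5 UMI in 5.98% of 117 WT cells, at a median depth of 3728 UMIs, and in 1 of 31 KO cells (3.23%, 0.0816 to 16.7), at 2415 UMIs. Thinned, it was 4 of 74 WT cells (5.41%, 1.49 to 13.3) and 1 of 13 KO cells (7.69%, 0.195 to 36.0). Among KO cells, 1.19% of goblet-like cells (0.546 to 2.25, median 10329 UMIs) and 8.65% of cycling-like cells (6.89 to 10.7, median 10166 UMIs) held one. Thinned, the KO shares were 3.19% in cluster 0, 2.39% in cycling-like cells and 0.134% in goblet-like cells. The KO shares of goblet-like cells and of clusters 0 and 3 thus differed beyond counting error. With so few stromal-like cells, the interval of their share takes in those of KO clusters 0 and 3, so this comparison cannot decide. Goblet-like KO cells, about as deep as cycling-like ones, held Lgr5 less often than both clusters, before and after thinning. The share due to free RNA was not tested.

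**Figure D2:**
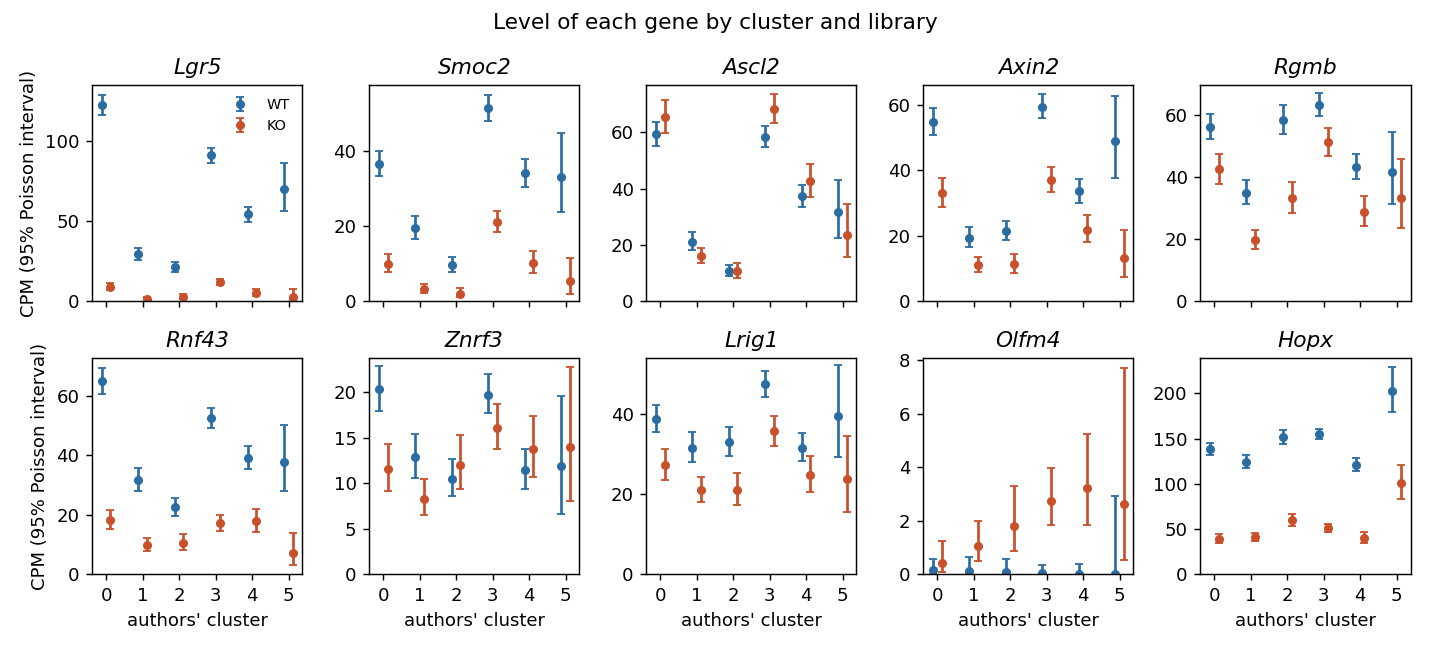
CPM of each of the 10 genes in the authors' clusters 0 to 5, in the WT (blue) and KO (orange) library, with 95% Poisson intervals. Lgr5, Rnf43 and Hopx are lower in KO in every cluster drawn, whereas the WT and KO points of Ascl2 lie close together, as at 59.3 and 65.5 CPM in cluster 0.

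Before thinning, Smoc2 was lower by the rule in the 5 clusters in which it had enough UMIs, from −2.63 (−3.27 to −2.04) in goblet-like to −1.29 (−1.51 to −1.07) in cycling-like cells. Rnf43 was lower in all 6, from −2.43 (−3.72 to −1.34) in enteroendocrine-like cells to −1.09 (−1.52 to −0.67) in cluster 2. Hopx was lower in all 6 as well, from −1.82 (−2.01 to −1.64) in cluster 0 to −1.01 (−1.34 to −0.69) in enteroendocrine-like cells. Axin2 was lower in all 6, from −1.90 (−2.82 to −1.06) in cluster 5 to −0.62 (−0.95 to −0.30) in cluster 4. With thinned cells Axin2 was lower by the rule in no cluster, at −0.47 (−0.86 to −0.09) in cluster 0, −0.23 (−1.07 to 0.61) in cluster 1, −0.27 (−0.65 to 0.11) in cluster 3 and −0.54 (−1.21 to 0.11) in cluster 4, with under 50 UMIs in clusters 2 and 5. Hopx stayed lower in all 6 clusters with thinned cells, and Rnf43 in the 5 in which it was measured. Smoc2 was lower in clusters 0, 3 and 4 and had too few UMIs in the others.

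Ascl2 met the rule in none of the 6 clusters. Its level was 59.3 against 65.5 CPM in cluster 0 (0.14, −0.03 to 0.31), 58.5 against 68.4 CPM in cycling-like cells (0.23, 0.08 to 0.37) and 37.3 against 42.7 CPM in colonocyte-like cells (0.19, −0.06 to 0.44). In goblet-like cells it was 21.2 against 16.1 CPM (−0.39, −0.72 to −0.07). The direction thus differed between clusters, with differences below 1.5-fold in each.

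Znrf3 also had ratios on both sides. It was lower in cluster 0 (−0.81, −1.19 to −0.45) and in goblet-like cells (−0.63, −1.08 to −0.19), and stood at 0.27 (−0.19 to 0.72) in colonocyte-like cells and 0.20 (−0.27 to 0.65) in cluster 2. With thinned cells it was neither in cluster 0 (−0.60, −1.28 to 0.06), had too few UMIs in clusters 1 and 2, stood at −0.46 (−1.38 to 0.41) in cluster 4 and was lower in cluster 3 (−0.68, −1.31 to −0.07). Rgmb was lower in goblet-like cells and cluster 2, at −0.83 and −0.82, and Lrig1 in goblet-like cells, cluster 2 and enteroendocrine-like cells, at −0.59, −0.65 and −0.74. With thinned cells the 2 calls of Rgmb held and cluster 4 joined them, whereas of the 3 calls of Lrig1 that in cluster 2 alone held. Lrig1 was then neither in cluster 1 (−0.40, −0.98 to 0.18) and stood at 0.38 (−1.14 to 2.08) in cluster 5, with too few UMIs for a call. Olfm4 had too few UMIs in each cluster. Its KO UMIs numbered 28 in cycling-like cells, 16 in colonocyte-like cells, 10 in cluster 2 and 9 in goblet-like cells, against 1, 0, 1 and 1 in the WT library.

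Counted by cluster, 6 of 9 measured genes were lower in cluster 0, against 12.9% of all genes measured there. The counts were 8 of 9 in goblet-like cells (16.8% of all genes), 7 of 9 in cluster 2 (16.7%), 5 of 9 in cycling-like cells (11.7%), 5 of 9 in colonocyte-like cells (12.7%) and 5 of 7 in enteroendocrine-like cells (9.76%). These counts are before thinning. None of the 10 genes was higher by the rule in a cluster. Of all genes 19.9% were higher in cluster 0, 13.1% in goblet-like cells, 14.4% in cluster 2, 17.5% in cluster 3, 16.0% in cluster 4 and 14.9% in cluster 5.

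Because Ascl2 was alike in both libraries, the other genes were also read in cells grouped by their Ascl2 UMIs. Lgr5 was lower in the KO library at every Ascl2 count, and Ascl2-holding KO cells mostly lacked it. Of 1221 WT cells with an Ascl2 UMI, 67.1% held Lgr5 (64.4 to 69.7), and of 949 KO cells with one, 9.91% did. Thinned to 3000 UMIs, these shares were 32.5% of 406 cells and 2.62% of 381 cells. Among cells with 3 or more Ascl2 UMIs, 305 WT cells held 1046 Lgr5 UMIs (139 CPM) and 156 KO cells held 27, a log2 ratio of −3.53 (−4.14 to −2.98). Among cells with no Ascl2 UMI the ratio was −3.22 (−3.52 to −2.94). Over the 4 groups of Ascl2 counts the ratio ranged from −3.53 to −3.00, against −3.47 over all cells.

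**Figure D3:**
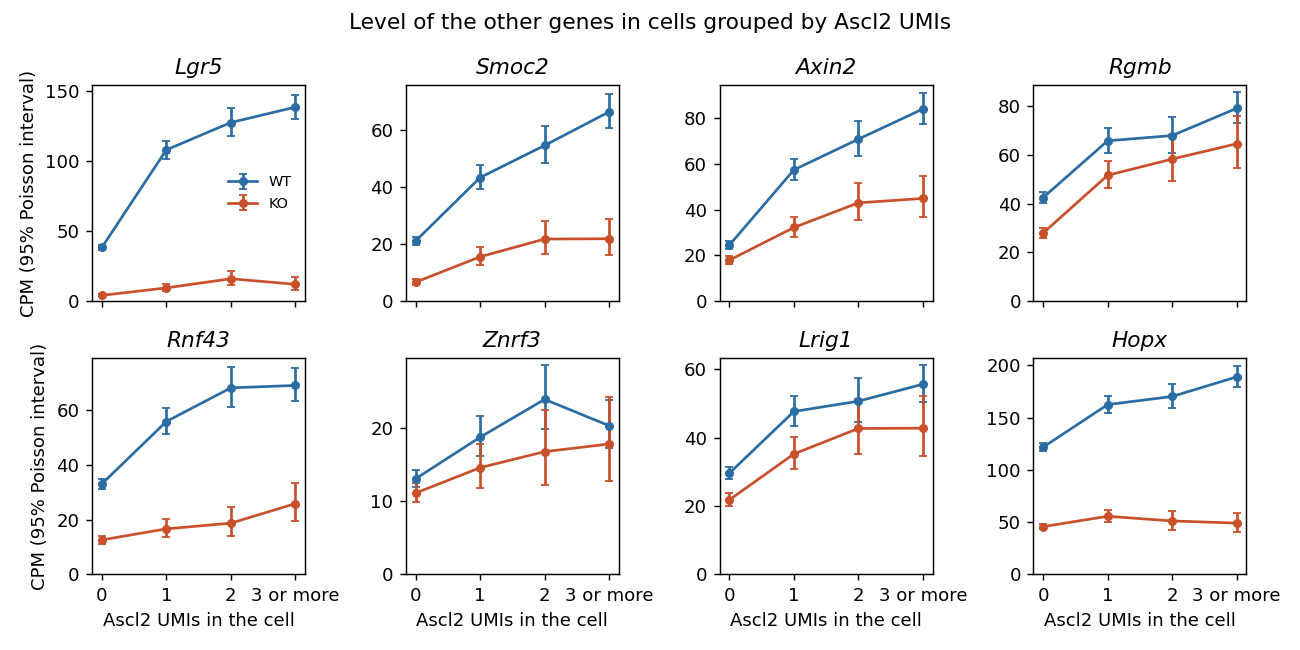
CPM of 8 of the genes in cells with 0, 1, 2 or 3 or more Ascl2 UMIs, in the WT (blue) and KO (orange) library, with 95% Poisson intervals. Lgr5 climbs from 38.4 to 139 CPM in WT and stays at or below 16.0 CPM in KO, and Hopx stands at 122 and 189 CPM at the ends in WT against 45.6 and 49.0 CPM in KO.

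The same grouping separated the other genes. Hopx stood at 122 CPM in WT cells without Ascl2 and 189 CPM in those with 3 or more UMIs, while in the KO library it stood at 45.6 CPM (43.1 to 48.3) without Ascl2, 55.5 CPM (49.9 to 61.6) at 1 UMI and 49.0 CPM (40.2 to 59.0) at 3 or more. Rnf43 climbed from 33.0 to 69.0 CPM in WT and from 12.5 to 25.8 CPM in KO cells. Axin2 climbed from 24.5 to 84.1 CPM in WT and from 17.9 to 45.0 CPM in KO cells. Rgmb, Lrig1 and Znrf3 also stood higher in Ascl2-holding cells of both libraries, and in cells with 3 or more Ascl2 UMIs their log2 ratios were −0.29 (−0.57 to −0.03), −0.38 (−0.72 to −0.06) and −0.19 (−0.73 to 0.32). Cells with more Ascl2 UMIs were deeper, with medians of 19785 UMIs in WT and 13224 in KO cells with 3 or more, so the groups are not of equal depth.

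Before thinning, the 172 KO cells that held Lgr5 had Ascl2, Axin2 and Rnf43 more often than the remaining KO cells. Ascl2 was found in 54.7% of them (46.9 to 62.2) and in 24.6% of the other KO cells, and in 56.8% and 14.5% of WT cells with and without Lgr5. Axin2 was found in 86 of the 172 and in 17.5% of KO cells without Lgr5. Rnf43 was found in 31.4% and 12.4% of them, against 61.5% and 26.5% in WT cells. With thinned cells, Ascl2 was found in 16.4% of 61 KO cells with Lgr5 (8.15 to 28.1) and in 10.6% of the other KO cells, and Rnf43 in 6.56% (1.82 to 15.9) and 4.12%, within counting error. Axin2 was found in 10 of these 61 cells and in 7.18% of the others, and Rgmb in 27.9% (17.1 to 40.8) and 10.2%. At 3000 UMIs per cell, 36.2% of 4038 WT cells and 56.2% of 3556 KO cells held none of the 10 genes, and 57 WT and 2 KO cells held 5 or more.

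The Xist-only and the Y-only cells were also compared separately. Lgr5 stood at 73.0 CPM in WT and 3.72 CPM in KO cells of the first kind (−4.29, −4.67 to −3.94), and at 63.9 and 8.67 CPM in those of the second (−2.88, −3.22 to −2.56). Rnf43 stood at −1.98 (−2.20 to −1.76) and −1.35 (−1.60 to −1.10), and Smoc2 at −1.97 (−2.22 to −1.72) and −1.38 (−1.67 to −1.10). The intervals of Lgr5, Rnf43 and Smoc2 thus did not overlap between the kinds of cells. Hopx stood at −1.53 and −1.54. Ascl2 stood at −0.09 (−0.23 to 0.05) and 0.21 (0.04 to 0.38). The difference between the kinds of cells was not tested, since the animals behind them are not known.

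Among the 13 sums of a library and cluster with at least 50 cells, the genes whose log2(CPM + 1) ran most like that of Lgr5 included Cct4, a subunit of the cytosolic chaperonin (Pearson r = 0.99), Gid4, a substrate receptor of a ubiquitin ligase (0.98), Rnf43 (0.97) and Rgcc, a regulator of the cell cycle (0.96). These sums share 2 libraries, 8910 genes were considered, and the genes were picked for their likeness. Since the sums take in both libraries and Lgr5 was lower in KO, the picking itself favours genes that are lower in KO. Their log2 ratios, −0.75 for Cct4, −0.79 for Gid4 and −2.09 for Rgcc, are thus no separate result. Across the 7 WT sums alone, the r of Lgr5 was 0.97 with Ascl2 and 0.97 with Rnf43. Across all 13 it was 0.39 with Ascl2 and remained 0.97 with Rnf43. This restates the ratios above, as Lgr5 and Rnf43 were lower in the KO clusters and Ascl2 was not.

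Genes of the Wnt pathway outside the 10 did not share 1 direction. The counts of each list below stand against 16.2% of all genes lower and 16.7% higher, and a share near these is not a result about the list. Of 20 measured genes of a list of other stem cell genes, 8 were lower, 2 higher and 10 neither, with a median log2 ratio of −0.38 (7 lower of 19 without the stromal-like cluster). Rnf32 (−1.36, −1.60 to −1.13) and the water channel gene Aqp1 (−1.17, −1.28 to −1.05) were lower. The water channel gene Aqp4 (0.90, 0.85 to 0.94) and Mex3a, an RNA-binding protein of crypt progenitors (0.87, 0.70 to 1.04), were higher. Prom1, a membrane protein of stem and progenitor cells, stood at 0.56 (0.48 to 0.64).

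Of 20 measured Wnt target genes outside the 10, the rule put 6 lower and 4 higher. Their median was −0.32, and the count higher is near the share of all genes. The lists overlap and are not separate evidence. Sox9, Cd44, Ephb2, Ephb3 and Tnfrsf19 are also among the other stem cell genes, with Ephb3 counted as lower in both lists. Lgr4 is among the other stem cell genes and the receptors, and Kremen1 among the targets and the secreted inhibitors. Tcf7, which encodes a Wnt effector (−1.76, −2.20 to −1.33), and Myc (−1.11, −1.24 to −0.99) were lower. Ccnd2, a D-type cyclin gene (1.04, 1.01 to 1.07), Zbtb7c (1.54, 1.27 to 1.81) and Sox4, a transcription factor gene (0.71, 0.67 to 0.75), were higher. Wif1, a secreted Wnt inhibitor that is itself a Wnt target, had 162 WT against 4 KO UMIs (−4.66, −6.56 to −3.28). It also stands among the 5 measured secreted inhibitors, of which 2 were lower and 0 higher (median −0.74), the other being Sfrp1 (−2.64, −4.01 to −1.53). The call of Sfrp1 was lost without the stromal-like cluster (−1.65, −4.08 to 0.17).

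**Figure D4:**
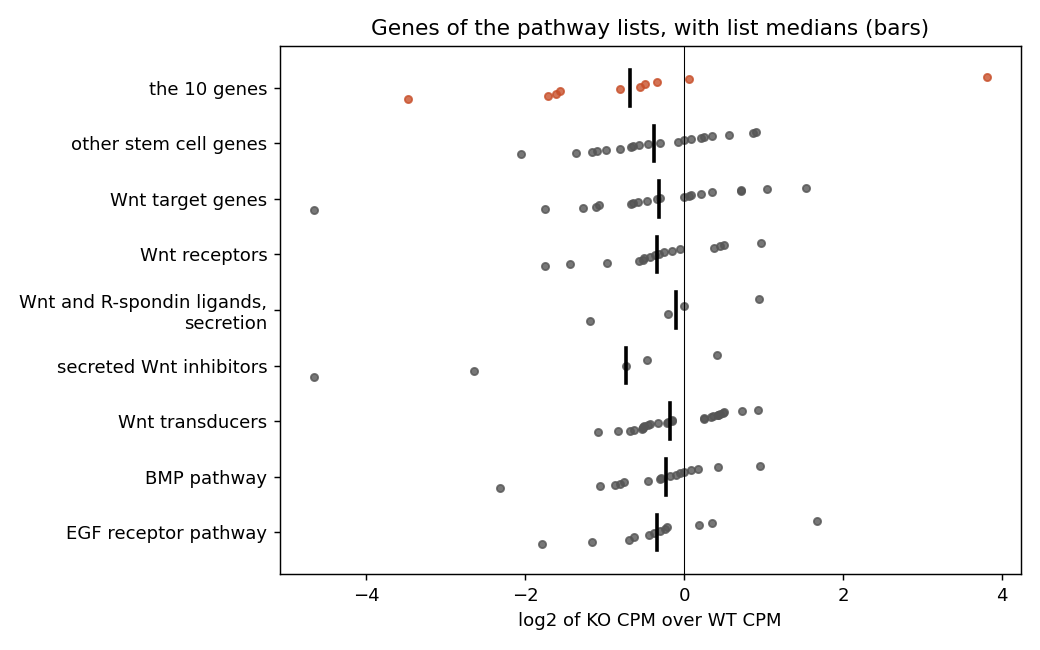
Log2 ratio of KO over WT CPM of each measured gene of the 10 (orange) and of the pathway lists (grey), with list medians as bars. The median is −0.68 for the 10 genes, −0.38 for other stem cell genes, −0.32 for Wnt targets and −0.18 for Wnt transducers. Genes shared by lists are drawn in each.

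Among 16 measured Wnt receptors 3 were lower and 1 higher (median −0.34), the former near the share of all genes. The called genes were Frizzled genes, with Fzd7 (−1.76, −2.05 to −1.47), Fzd2 (−1.44, −1.93 to −0.98) and Fzd1 (−0.98, −1.23 to −0.73) lower and Fzd4 (0.96, 0.72 to 1.21) higher. Of 26 transducers 4 were lower, among them Amer1, which encodes a partner of Apc (−0.83, −1.01 to −0.66), and the corepressor gene Tle4 (−0.68, −0.81 to −0.55). Another 2 were higher, namely the β-catenin cofactor gene Bcl9l (0.93, 0.80 to 1.06) and Tcf7l1 (0.73, 0.63 to 0.82), and the median was −0.18. Neither count exceeded the share of all genes. Of 4 measured ligand and secretion genes (median −0.10), Wnt5a was lower (−1.19, −1.67 to −0.74) and Porcn, the acyltransferase of Wnt proteins, higher (0.94, 0.50 to 1.39).

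Rgmb and Lrig1 act on the BMP and ErbB pathways. Of 16 measured BMP genes 5 were lower, including the target Id1 (−0.81, −0.86 to −0.76) and the inhibitor Smad6 (−1.06, −1.33 to −0.79), and 1 was higher, the ligand Bmp2 (0.96, 0.80 to 1.11), with a median of −0.23. Without the stromal-like cluster 4 of 15 were lower, since Bmp4 was no longer measured. Of 12 EGF receptor genes 3 were lower, namely the ligands Hbegf (−1.79, −1.98 to −1.61) and Tgfa (−0.70, −0.90 to −0.50) and the inhibitor Errfi1 (−1.16, −1.29 to −1.03). The ligand Areg was higher (1.67, 1.43 to 1.92), and the median was −0.34.

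Markers of other cells differed between the libraries as well. The 7 stromal markers summed to 90.1 CPM in the WT library, with all 7 detected, and to 16.3 CPM in the KO library, with Pdgfra at 0. Several pathway genes lay mainly in the stromal-like cluster: it held 77.7% of the WT UMIs of Fstl1, 78.6% of those of Sfrp1, 92.2% of those of Bmp4 and 71.2% of those of Wnt4. Wnt4 was singled out after its values were seen. Without that cluster Fstl1 (−2.05 with it), Sfrp1 and Bmp4 were under the minimum of 50 UMIs, Bmp4 stood at −0.23 (−1.79 to 1.21) against −2.31 (−3.04 to −1.65) with it, and Wnt4 was higher by the rule (interval 0.89 to 2.13). The cluster held 1.47% or less of the WT UMIs of each of the 10 genes except Olfm4, and Lgr5 without it stood at −3.49. The 8 colonocyte markers, all detected in both libraries, summed to 573 and 221 CPM. The 9 goblet markers summed to 14401 and 18160 CPM, the 7 cycling markers to 652 and 727 CPM and the 4 M cell markers to 8.79 and 169 CPM. The 8 immune markers summed to 66.9 and 76.7 CPM, the 7 enteroendocrine markers to 534 and 540 CPM, the 4 deep crypt secretory markers to 736 and 525 CPM and the 5 tuft markers to 7.66 and 3.03 CPM, with Pou2f3 at 0 in KO. The 11 pancreatic enzyme genes summed to 1421 CPM in the WT library and 112 CPM in the KO library, where 7 were at 0. Without the 33 enzyme-rich cells the ratio of Lgr5 was −3.48. What part the other marker differences have in the ratios of the 10 genes was not tested.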

How the data were processed

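Live EpCAM-positive colonic cells were profiled with a 10x Genomics 3' kit, per the labels' protocols. The authors deposited whole-number UMI counts per gene and cell, and a table giving the library and cluster of each cell. The submitters' processing notes name Cell Ranger, bcl2fastq and the mm10 build. Versions, cell filter, clustering method and any doublet removal are not given in the sources used here, and no doublets were removed here. The deposited counts held no cell above 20.0% mitochondrial UMIs.

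Counts were summed per library or cluster and divided by the summed total (CPM). Intervals of ratios are exact conditional binomial, those of CPM exact Poisson and those of shares exact Clopper-Pearson, all at 95% and for counting error only. Intervals and calls were run on simulated Poisson counts, the same counting model that the intervals assume. That run held no variation between cells or animals, so it does not show that the intervals are wide enough for these data. The 10 genes and the pathway and marker lists were chosen with earlier results of these data known. Pathway genes to name were those whose interval lay furthest from 0, up to 3 per list and direction. For Lgr5, the 5 genes with the highest correlation were taken, of which 1 is not reported here. Clusters took the name of the best-scoring marker list (mean z of log2(CPM + 1) over clusters), unless their 10 leading genes held more markers of another class. Cluster 0 was kept unnamed against this rule. Alternatives changed scaling, cell weights, depth, cells kept, fold rule and gene filter. The lists without the stromal-like cluster were added after seeing the data. Python 3.11.15, numpy 2.4.6, scipy 1.17.1 and pandas 2.3.3 were used.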

Additional observations from a re-analysis of the deposited data

How the results depend on the processing

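The number of the 10 genes that were lower stayed between 4 and 6 under all 19 alternatives run. The share of all genes that were lower under each alternative is not given here, so this count has no background beside it. The number higher, 1 over all cells, became 0 when cells were thinned, in deep cells (10000 UMIs or more, mitochondrial share up to 10%), in Xist-only cells, in Y-only cells, without cluster 3 and with equal weight per cluster. This gene is Olfm4, which has fewer counts in subsets of cells and, with equal cluster weights, WT clusters at 0. Its ratio stayed between 2.73 and 4.45 where one could be had. The log2 ratio of Lgr5 ranged from −4.29 to −2.88. It left the main interval in deep cells (−2.98), in Xist-only cells (−4.29), in Y-only cells (−2.88), without cluster 0 (−3.28), without cluster 3 (−3.85) and with equal cluster weights (−3.71). The causes were not tested. Apart from Ascl2, which ranged from −0.09 to 0.21, each gene kept its sign in every alternative that gave a value. Shallow cells alone were not among the alternatives. In cells under 5000 UMIs (351 WT and 357 KO), Axin2 stood higher in KO, at 31.0 and 37.4 CPM. So did Ascl2 (26.3 and 42.1), Lrig1 (23.4 and 28.6) and Znrf3 (16.9 and 18.3), while Lgr5, Smoc2, Rgmb, Rnf43 and Hopx stood lower there too. Thinning ended the calls of Axin2 in every cluster. Within clusters 1 called ratio changed sign, that of Lrig1 in enteroendocrine-like cells, at 0.38 when thinned. Without the stromal-like cluster the list of Wnt ligands and secretion genes had 2 genes higher in place of 1, and the secreted inhibitors 1 lower in place of 2. No paired analysis was possible because each genotype has 1 library. The low counts of Olfm4 and of the enteroendocrine-like cells limit their precision.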
